A study of Mus musculus with 6 samples.

Results

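The genes described here were 10 gut hormone and enteroendocrine granule genes, namely Chga, Chgb, Tph1, Gip, Cck, Sct, Gcg, Pyy, Nts and Ghrl. They were chosen by symbol, as genes known for their place in hormone-producing cells of the gut. They were 10 of the 22700 rows of the expression table and of the 12397 rows whose gene label could be restored. RNA-seq was carried out on mucosa from the middle part of the small intestine of 3 alk-SMase KO mice and 3 WT mice, each of which gave 1 library. Values are given in the order K79S, K82S, K86S for KO libraries, and in the order W83S, W89S, W90S for WT libraries. Alk-SMase, encoded by Enpp7, is the sphingomyelin-hydrolysing enzyme of the brush border. In the KO mice its exon 2 had been removed with the Cre-LoxP system, which shifts the reading frame and stops translation. The study names C57BL/6 mice in describing the targeted gene and names no other strain. All mice were fed standard pellets. The ages of the mice and the promoter that drove Cre are not given in the sources used here.

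Enteroendocrine cells are rare cells scattered along the gut epithelium, which sense the luminal content and release peptide hormones or serotonin from dense-core granules. Granins such as chromogranin A and chromogranin B are proteins of these granules, and prohormone convertases cut the hormone precursors inside them. The hormones made differ along the gut. Ghrelin comes mostly from the stomach, GIP, CCK and secretin mainly from the proximal small intestine, and neurotensin, PYY and the proglucagon peptides GLP-1 and GLP-2 increasingly from the distal bowel. In a bulk mucosal library, fewer cells of a type and less RNA per cell cannot be told apart.

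In the mm10 genome with the GENCODE M21 annotation, all 10 are protein-coding genes. Chga lies on chromosome 12 from 102554969 to 102565028 on the plus strand, Chgb on chromosome 2 from 132781278 to 132795079 on the plus strand and Tph1 on chromosome 7 from 46644641 to 46672537 on the minus strand. Gip lies on chromosome 11 from 96024545 to 96030831 on the plus strand, Cck on chromosome 9 from 121489824 to 121495694 on the minus strand and Sct on chromosome 7 from 141278330 to 141279133 on the minus strand. Gcg lies on chromosome 2 from 62474530 to 62483650, Pyy on chromosome 11 from 102106676 to 102107832, Nts on chromosome 10 from 102481756 to 102490486 and Ghrl on chromosome 6 from 113716119 to 113719880, all on the minus strand. Exons of Ghrl overlap exons of Gm26982 and Gm44033 on the opposite strand, and because a strand setting is not given in the sources used here, reads of these genes cannot be told apart from Ghrl reads. For the other 9 genes the annotation gave no overlapping exon of another gene.

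The 100 bases before the transcription start of 6 of these genes are shown, because the values given further on differed between libraries in opposite ways, as in Gip and Pyy. The sequences come from RefSeq promoter windows on GRCm38.p6, the assembly of mm10, in which all 10 genes were matched by symbol. They run 5′ to 3′ on the strand of the gene. Capitals mark the letters TATAA, the core of a TATA box, and TGACG, the core of a cAMP response element, each searched on both strands, so that TTATA and CGTCA are marked as well.
Gip (chr11:96024445-96024544, plus strand): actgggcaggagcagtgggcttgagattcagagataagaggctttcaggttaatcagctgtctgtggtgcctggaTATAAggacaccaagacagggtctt
Sct (chr7:141279134-141279233, minus strand): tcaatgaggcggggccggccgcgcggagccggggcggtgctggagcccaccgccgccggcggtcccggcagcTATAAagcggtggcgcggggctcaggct
Pyy (chr11:102107833-102107932, minus strand): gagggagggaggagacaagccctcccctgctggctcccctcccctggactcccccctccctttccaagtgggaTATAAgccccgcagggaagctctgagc
Gcg (chr2:62483654-62483753, minus strand): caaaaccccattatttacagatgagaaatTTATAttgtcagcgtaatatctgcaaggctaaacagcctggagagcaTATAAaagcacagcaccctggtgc
Chga (chr12:102554841-102554940, plus strand): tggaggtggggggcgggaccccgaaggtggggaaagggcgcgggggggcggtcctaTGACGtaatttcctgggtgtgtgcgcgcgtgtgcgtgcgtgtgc
Cck (chr9:121495695-121495794, minus strand): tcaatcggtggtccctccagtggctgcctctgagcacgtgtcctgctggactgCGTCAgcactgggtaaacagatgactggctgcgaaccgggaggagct
TATAA was found in 4 of 10 windows (Gip, Sct, Pyy and Gcg), against 10.2% of all 32851 promoter windows. Its first base lay at position -25 from the start in Gip, -28 in Sct, -27 in Pyy and -24 in Gcg. TGACG was found in 4 of 10 windows (Chga, Chgb, Cck and Tph1), against 10.5% of all windows. For Chgb and Nts the RefSeq start lay 364 and 68 bases downstream of the GENCODE start. All of the Chgb window and part of the Nts window thus lie inside the gene as placed above. For Chga, Ghrl and Gcg the RefSeq start lay 28, 31 and 3 bases upstream, so their windows end short of the gene as placed above. Pyy and Tph1 had 2 windows each and Ghrl 4, of which only the 1 nearest the GENCODE start was searched. These letters did not sort the genes by their values, since Gip and Pyy both hold TATAA. A match of letters describes the sequence only.

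The table holds FPKM, read density per length of transcript and per mapped read of the library, and its gene identifiers stood beside the values of other genes. Each gene was put back on its row by rank. After this step 99.7% of the 3649 identifiers with a single annotated transcript stood beside a row with at most 6 decimals, the mark of a value made from 1 transcript, against 33.9% as deposited. The offsets of the ranks had themselves been estimated from such decimals, so this share describes their fit. Within 100 ranks of each of the 10 genes, 52 to 76 such identifiers were found, and all or all but 1 of them stood beside such a row. The 7 epithelial marker genes, Epcam, Cdh1, Krt8, Krt18, Krt19, Cldn7 and Vil1, summed to 5579–8045 FPKM in KO and 5192–7750 FPKM in WT libraries. Depth was read from the spacing of the lowest values and came to an estimated 11100000 to 18400000 reads in KO and 14400000 to 19300000 reads in WT libraries. The study lists mapped reads for each library, and these were higher than the estimate in every library. Read numbers per gene derived from the estimate may therefore run low. The Y-linked genes Ddx3y and Eif2s3y summed to 0.0279 FPKM in K79S and to 8.63–12.2 FPKM in the other 5 libraries, and the labels name no sex. Enpp7 stood between 129 and 670 FPKM in KO and between 406 and 667 FPKM in WT libraries (log2 fold change -0.45, adjusted p = 0.782 by limma). FPKM of an entire gene cannot show that an exon is missing, so these values do not check the genotype labels. W83S stood apart by its gastric RNA, and the summed proximal genes were low in K79S, K82S and W89S, both described further on.

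**Figure D1:**
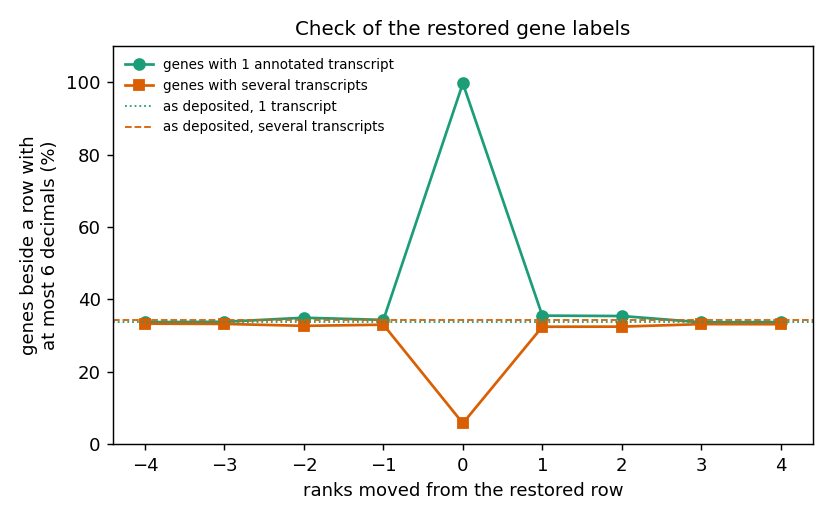
The plot shows the share of gene identifiers (y axis, percent) beside a row with at most 6 decimals, against the number of ranks by which the restored rows were moved (x axis), for genes with 1 annotated transcript (circles) and with several (squares), and dotted and dashed lines give the table as deposited. At 0 ranks the shares were 99.7% and 5.80%, and 1 to 4 ranks away they lay between 32.5% and 35.5%.

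No difference between KO and WT mice passed the test for any of the 10 genes. All 10 passed the filter on low values, and 0 of 10 passed the threshold, a fold change over 1.5 or under 2/3 at an adjusted p below 0.05 (limma on log2(FPKM + 1) with Benjamini-Hochberg adjustment over 13089 rows). Over all rows tested 0.00764% passed, which is 1 row. Unadjusted p-values were under 0.05 for 0 of the 10 genes and for 1638 of all rows by limma, and the lowest of the 10 was 0.139, for Ghrl. The log2 fold changes of KO over WT were above 0 for 4 genes and below 0 for 6, with a median of -0.09 against -0.06 over all rows. When each library was scaled to the same summed FPKM, the median over all rows moved by 0.15 on the log2 scale, and 6 genes lay above 0 and 4 below. The 95% interval of each of the 10 log2 fold changes included 0. For 8 genes the interval also held a change of 1.5-fold in at least 1 direction, and only for Chgb and Tph1 did it lie within 1.5-fold on both sides. The added 1 FPKM shrinks the fold of a low gene such as Tph1. The precision rests on 3 libraries per genotype, each taken as a separate mouse.

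The chromogranin genes stood at similar mean levels and differed in their spread. Chga, the gene of the granule protein chromogranin A and the usual marker of enteroendocrine cells, was measured at 33.1, 19.1 and 24.1 FPKM in the KO libraries and at 71.9, 26.3 and 25.2 FPKM in the WT libraries. W83S stood apart at 2.17 times the next library, and the other 5 libraries of both genotypes overlapped. The means were 25.4 ± 7.13 FPKM in KO and 41.1 ± 26.6 FPKM in WT mice (SD, n = 3 each), with a log2 fold change of -0.53 (SE 0.43, adjusted p = 0.611 by limma). Without W83S it was -0.05 (adjusted p = 0.976 by limma), and without K82S -0.35 (adjusted p = 0.703).

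Chgb, the gene of chromogranin B, was measured at 32.2, 26.7 and 33.9 FPKM in the KO libraries and at 33.3, 26.0 and 40.5 FPKM in the WT libraries, in the same order. The genotypes overlapped along nearly their whole range, and the highest library was 1.56 times the lowest. The means were 30.9 ± 3.78 and 33.3 ± 7.27 FPKM (SD, n = 3 each), with a log2 fold change of -0.09 (95% interval -0.58 to 0.40, adjusted p = 0.877 by limma), which turned to 0.09 with the same summed FPKM. Chgb has a single annotated transcript, and an estimated 1036 to 1762 reads lay behind each value. The ratio of Chga to Chgb was 1.03, 0.715 and 0.709 in the KO libraries and 2.16, 1.01 and 0.622 in the WT libraries, so that W83S was the library in which Chga most exceeded Chgb.

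Tph1, the rate-limiting enzyme of serotonin synthesis outside the brain, was the lowest of the 10 genes. It was measured at 1.01, 1.18 and 1.23 FPKM in the KO libraries and at 0.991, 0.813 and 0.972 FPKM in the WT libraries. It was the 1 gene of 10 whose lowest KO library exceeded the highest WT library, as 5.9% of all rows tested did, and for 0 of 10 was it the other way round, against 11.3% of all rows. The means were 1.14 ± 0.119 and 0.925 ± 0.0977 FPKM (SD, n = 3 each), with a log2 fold change of 0.15 (95% interval -0.19 to 0.49, adjusted p = 0.664 by limma). An exact permutation test, two-sided, returned p = 0.1, which 3 against 3 libraries cannot go below. The gap between the lowest KO and the highest WT library was 1.5%, and even if all reads came from the longest transcript, the 62 to 99 reads behind a value carry a counting error of 10.1% to 12.7%.

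**Figure D2:**
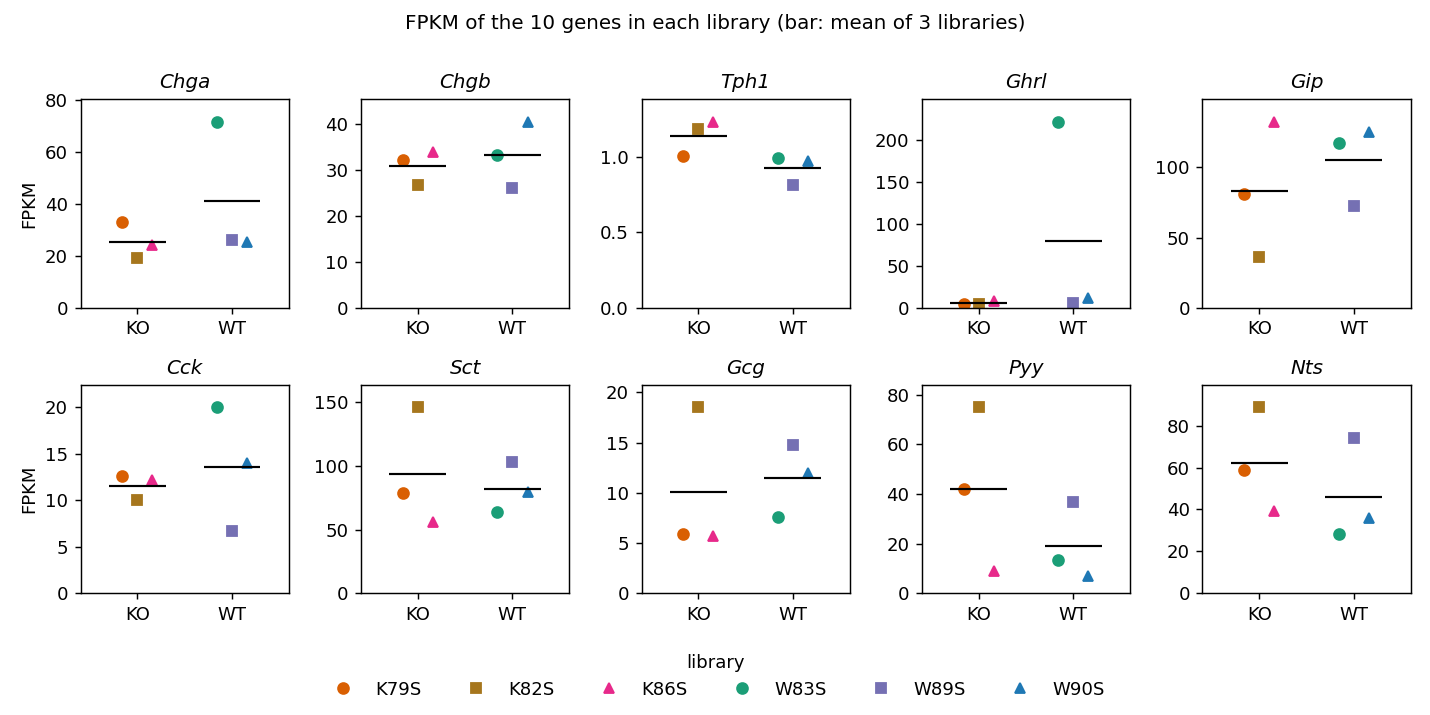
Each panel shows the FPKM (linear y axis from 0) of 1 gene in the 3 KO and 3 WT libraries (points, with 1 symbol per library) and the mean of each genotype (bar). Genotypes overlap in every panel but that of Tph1, W83S lies far above all others for Ghrl and Chga, and K82S is the highest library for Sct, Gcg, Pyy and Nts and the lowest for Gip.

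Gip had the highest mean level of the 10 genes. It encodes the incretin of K cells, which strengthens insulin release after a meal. Its values were 80.8, 36.5 and 133 FPKM in the KO libraries and 117, 72.7 and 126 FPKM in the WT libraries. K82S was the lowest and K86S the highest of all 6, so that the KO libraries spanned the whole WT range. The means were 83.3 ± 48.1 and 105 ± 28.4 FPKM (SD, n = 3 each), with a log2 fold change of -0.47 (SE 0.48, adjusted p = 0.685 by limma), and without K82S it was 0.02 (adjusted p = 0.980).

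Cck, the hormone of I cells that contracts the gallbladder and slows gastric emptying, was measured at 12.6, 9.99 and 12.1 FPKM in the KO libraries and at 20.0, 6.68 and 14.0 FPKM in the WT libraries. The KO libraries all fell inside the range of the WT libraries, whose lowest was W89S and highest W83S. The log2 fold change was -0.10 (SE 0.36, adjusted p = 0.922 by limma). It was 0.07 with the same summed FPKM and 0.22 without W83S.

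Sct, the gene of secretin, the hormone of S cells that drives pancreatic bicarbonate secretion, was measured at 78.9, 146 and 55.7 FPKM in the KO libraries and at 63.8, 103 and 79.2 FPKM in the WT libraries. The highest library of each genotype was K82S and W89S, and the lowest of all was the KO library K86S. The means were 93.7 ± 47.1 and 82.2 ± 20.0 FPKM (SD, n = 3 each), with a log2 fold change of 0.10 (SE 0.38, adjusted p = 0.928 by limma). It turned to -0.28 without K82S and to -0.07 without W83S.

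Gcg and Pyy, which L cells make together, had their highest values in the same KO library but did not rank the other libraries alike. Gcg, the proglucagon gene, was measured at 5.92, 18.6 and 5.67 FPKM in the KO libraries and at 7.62, 14.8 and 12.0 FPKM in the WT libraries. K82S was the highest library, and the other KO libraries were the lowest of all 6. The log2 fold change was -0.32 (SE 0.46, adjusted p = 0.783 by limma). Without K82S it was -0.83 (95% interval -1.49 to -0.17), with the lowest adjusted p of the 10 genes under the alternatives run (adjusted p = 0.122 by limma), in a fit in which 9.28% of all rows passed the threshold. Without W83S it was -0.56, and without K79S, K86S or W89S it lay between -0.13 and -0.05.

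Pyy, the gene of peptide YY, which slows gut transit and food intake, spread most after Ghrl, with the highest library at 10.6 times the lowest. It was measured at 41.9, 75.1 and 9.08 FPKM in the KO libraries and at 13.3, 36.9 and 7.10 FPKM in the WT libraries. K82S, K79S and W89S formed the upper 3 and K86S, W83S and W90S the lower 3, so that each level held libraries of both genotypes. The means were 42.0 ± 33.0 and 19.1 ± 15.8 FPKM (SD, n = 3 each), with a log2 fold change of 0.97 (95% interval -1.07 to 3.01, adjusted p = 0.643 by limma), which was 0.34 without K82S, 0.46 without W90S, 1.58 without W89S and 1.80 without K86S. The ratio of Pyy to Gcg ran from 0.594 in W90S to 7.07 in K79S.

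Nts, the gene of neurotensin, a peptide of N cells that is released after fat intake, divided the libraries as Pyy did. It was measured at 58.9, 89 and 39.4 FPKM in the KO libraries and at 28.3, 74.1 and 36.0 FPKM in the WT libraries, so that the same 3 libraries were the upper ones. The means were 62.4 ± 25.0 and 46.1 ± 24.5 FPKM (SD, n = 3 each), with a log2 fold change of 0.47 (SE 0.43, adjusted p = 0.658 by limma). It was 0.18 without K82S, 0.19 without W83S, 0.76 without K86S and 0.87 without W89S. Nts has a single annotated transcript and an estimated 548 to 2048 reads behind each value, so counting error is small beside this spread.

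Ghrl, the gene of ghrelin, the appetite-stimulating hormone of gastric X/A-like cells, had the largest fold change of the 10 genes and the widest interval. It was measured at 4.52, 4.70 and 7.53 FPKM in the KO libraries and at 222, 5.81 and 11.5 FPKM in the WT libraries. W83S stood at 19.2 times the next library, while W89S lay inside the KO range and W90S above it. The means were 5.58 ± 1.69 and 79.7 ± 123 FPKM (SD, n = 3 each), with a log2 fold change of -2.05 (95% interval -4.97 to 0.87, adjusted p = 0.483 by limma). Without W83S it was -0.52 (adjusted p = 0.643).

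**Figure D3:**
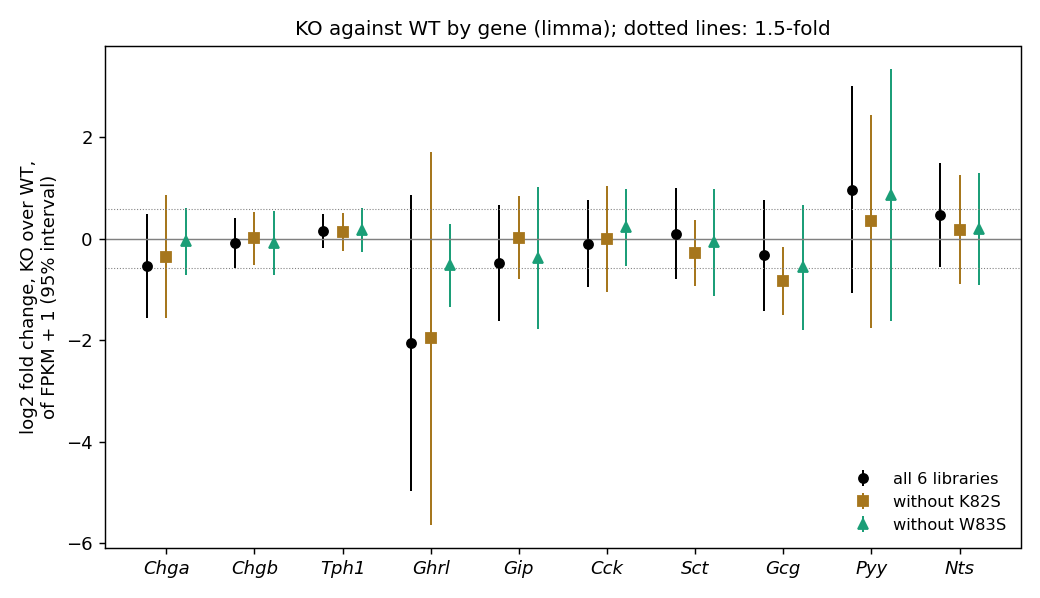
Points give the log2 fold change of KO over WT of FPKM + 1 (y axis) for each gene (x axis), with 95% intervals from limma, over all 6 libraries, without K82S and without W83S, and dotted lines mark 1.5-fold. With all libraries every interval crosses 0, and the point for Ghrl moves from -2.05 to -0.52 without W83S.

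By mean FPKM, which is per length and may be compared between genes, the order was Gip (94.2), Sct (87.9), Nts (54.3), Ghrl (42.6), Chga (33.3), Chgb (32.1), Pyy (30.6), Cck (12.6), Gcg (10.7) and Tph1 (1.03). Few steps of this order held in every library. Sct lay above Nts and Gcg above Tph1 in 6 of 6 libraries, while Chga lay above Chgb, Chgb above Pyy and Pyy above Cck in only 3 of 6. Gip lay above Sct and Cck above Gcg in 4 of 6, and these neighbours overlapped across libraries. The mean of Ghrl rests on W83S, and its median over the 6 libraries was 6.67 FPKM.

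Libraries of the same genotype differed widely, and Pyy and Nts were high in libraries in which Gip was low. Gip and Cck, whose hormones come mainly from the proximal small intestine, were lowest in K82S and W89S. Sct, of the same region, was highest in these libraries, as Gcg and Nts were. The part of gut region in these values was not tested. K82S was the highest library for Sct, Gcg, Pyy and Nts and the lowest for Chga and Gip, so it was at an end of the range in 6 of 10 genes, against 35.2% of all rows. The ratio of Gip to Pyy was 1.93, 0.486 and 14.6 in the KO libraries and 8.83, 1.97 and 17.7 in the WT libraries. It thus stood below 2 in K79S, K82S and W89S and above 8 in K86S, W83S and W90S. Across the 6 libraries the highest value was 1.56 times the lowest for Chgb and 3.77 times the lowest for Chga.

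Of 7 genes of the distal intestine 3 had a restored row, and 2 of these split the libraries the same way as Pyy and Nts. Osr2, a transcription factor gene, was measured at 35.2, 25.5 and 35.3 FPKM in K79S, K82S and W89S and at 17.3, 12.4 and 18.9 FPKM in K86S, W83S and W90S. Bcl2l15 had the same upper 3 libraries, at 27.7 to 45.5 FPKM against 10.9 to 19.6 FPKM, whereas Cubn, the cobalamin-intrinsic factor receptor, did not. Its values were 63.6, 29.8 and 45.0 FPKM in KO and 14.9, 29.3 and 15.7 FPKM in WT libraries, a log2 fold change of 1.17 that did not pass the test (adjusted p = 0.393 by limma). The 3 genes together summed to 101–127 FPKM in K79S, K82S and W89S and to 46.7–73.2 FPKM in the others.

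The summed genes of the proximal intestine ran the other way. All 9 of 9 had a restored row, and their sum was 2325, 1186 and 4869 FPKM in the KO libraries and 4570, 1642 and 6371 FPKM in the WT libraries. Fabp1, the fatty acid-binding protein gene that made up most of this sum, was measured at 1576, 972 and 1255 FPKM in K79S, K82S and W89S and at 3765, 3834 and 5415 FPKM in the others. Gata4, the transcription factor of the proximal small intestine, was lowest in K82S and W89S, at 11.3 and 25.4 FPKM, and stood at 34.3 to 47.2 FPKM in the other 4 libraries, K79S among them. Adh6a, an alcohol dehydrogenase, and Cyp3a11, a drug-metabolising enzyme, were lowest in the same 3 libraries as Fabp1, at 68.3–149 and 52.2–106 FPKM against 244–298 and 183–337 FPKM. Lct, lactase, was lowest in K82S and W89S, at 76.3 and 163 FPKM, and stood at 243–490 FPKM in the others. Slc40a1, the iron exporter, named after its values were seen, did not follow, with its highest values in W83S and K82S, at 7.08 and 5.11 FPKM. Pdx1 and Cybrd1 did not follow either. They were highest in W83S, at 5.44 and 6.05 FPKM. In W90S they stood at 0.128 and 0.220 FPKM, and in K79S at 0.477 and 0.122 FPKM. Onecut2 was lowest in the same 3 libraries as Fabp1, at 0.0962–0.815 FPKM against 1.04–1.53 FPKM. Pdx1, Cybrd1 and Onecut2 were likewise named after their values were seen. The low summed proximal and high summed distal genes thus moved with high Pyy and Nts and low Gip in 2 KO libraries and 1 WT library, and their part in the hormone values was not tested. The labels name the tissue alike for all mice, with no position along the intestine.

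**Figure D4:**
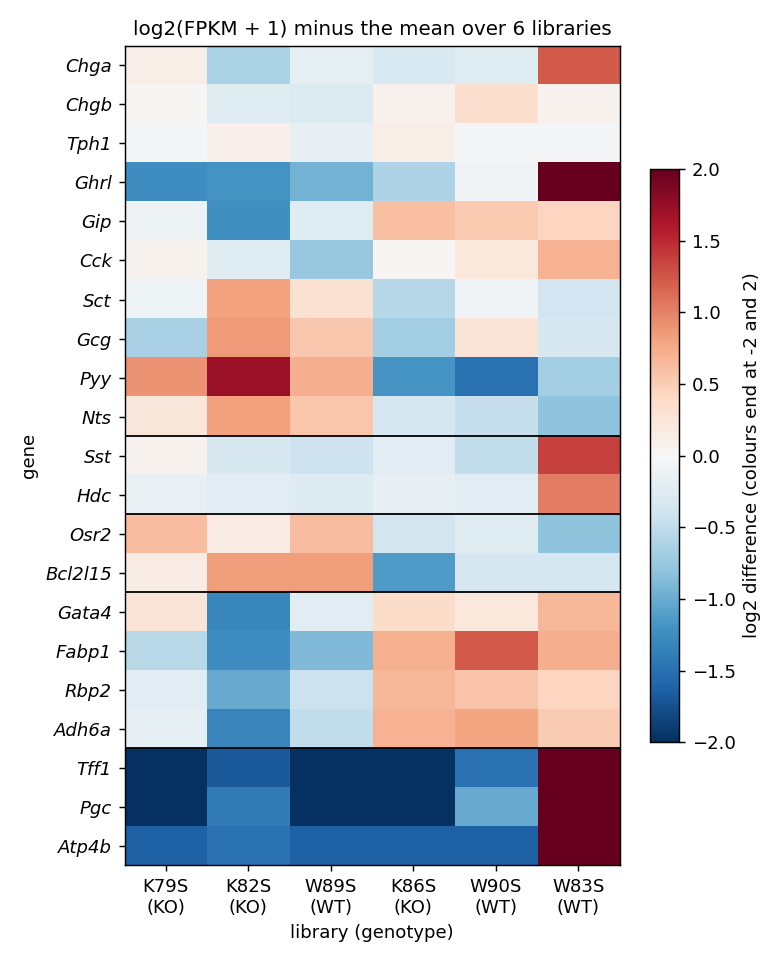
Colours give log2(FPKM + 1) minus the mean over the 6 libraries for the 10 genes and for 11 genes of other lists (rows), in the 6 libraries (columns, with genotype), and lines part the 10 genes, Sst and Hdc, distal genes, proximal genes or enterocyte genes, and gastric genes. Pyy and Nts are above their means in K79S, K82S and W89S with the plotted distal genes, Osr2 and Bcl2l15. Ghrl, Chga, Sst and Hdc are highest in W83S with the gastric genes. The distal gene Cubn, which did not follow, is not plotted. The proximal genes Lct, Slc40a1, Pdx1, Cybrd1, Onecut2 and Cyp3a11 are not plotted either, and not all of them followed. Enterocyte genes other than Fabp1 and Rbp2 are also not plotted, and not all of these followed.

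Ghrl, Chga and Cck were highest in W83S, at 19.2, 2.17 and 1.44 times the next library, and genes of the stomach were highest there too. Of 12 gastric marker genes 8 had a restored row, and their sum was 41040 FPKM in W83S, 0.0479–5.39 FPKM in the KO libraries and 1.36–5.94 FPKM in the other WT libraries. Tff1 and Gkn1 of surface mucous cells stood at 15727 and 6251 FPKM in W83S, Pgc of chief cells at 15082 FPKM, and Atp4a and Atp4b, the proton pump genes of parietal cells, at 507 and 805 FPKM. Atp4a and Atp4b were listed at 0 in 4 of the other libraries. Sst, the somatostatin gene of D cells and the 1 of 8 other hormone genes with a restored row, was measured at 59.2, 45.0 and 48.0 FPKM in the KO libraries and at 147, 41.8 and 39.9 FPKM in the WT libraries, again highest in W83S, at 2.49 times the next.

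Hdc, which makes histamine in the enterochromaffin-like cells of the stomach, stood at 1.53 FPKM in W83S and at 0.0420–0.127 FPKM in the other 5 libraries, and Slc18a2, the vesicular monoamine transporter of such cells, at 0.980 FPKM against 0.185–0.346 FPKM. Foxa2, a transcription factor of endocrine and gastric epithelium, stood at 5.92 FPKM in W83S and at 0.604–1.22 FPKM elsewhere. Pancreatic acinar genes, of which 4 of 11 had a restored row, summed to 46.3 FPKM in W83S, 1.08–3.92 FPKM in KO and 3.54–3.75 FPKM in the other WT libraries. The part of such RNA in the values of Ghrl, Chga, Cck and Sst in W83S was not tested.

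The machinery of the granules showed no called change either. Of 20 genes of granins, prohormone processing and exocytosis 9 had a restored row and 8 were tested, with 0 called in either direction, 3 log2 fold changes above 0 and 5 below, and a median of -0.06, against -0.06 over all rows. Pcsk1, prohormone convertase 1/3, which cuts proglucagon to GLP-1 in L cells, was measured at 1.75, 2.85 and 1.75 FPKM in the KO libraries and at 1.53, 1.38 and 1.65 FPKM in the WT libraries. Every KO library exceeded every WT library in this 1 of the 8 genes tested, as in 5.9% of all rows (exact permutation p = 0.1), with a log2 fold change of 0.29 (adjusted p = 0.490 by limma), which was 0.13 without K82S. Cpe, the carboxypeptidase that trims cut prohormones, lay between 3.85 and 5.60 FPKM, Scg2, the gene of secretogranin II, between 1.92 and 4.26 FPKM, and Pam, which amidates peptide ends, between 1.29 and 2.66 FPKM, all with overlapping genotypes.

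Of 10 genes of amine synthesis, storage and breakdown 8 had a restored row and 6 were tested, with 0 called and a median of -0.23, which was 0.04 without K82S. Ddc, the decarboxylase that completes serotonin synthesis, was measured at 13.2–22.6 FPKM in KO and 16.1–34.1 FPKM in WT libraries. Maoa and Maob, which break serotonin and other amines down, stood at 157–260 and 14.0–70.9 FPKM in KO and at 205–271 and 51.0–54.7 FPKM in WT libraries, with the lowest value of both in K82S. Slc6a4, the serotonin transporter, stood at 15.4–25.3 FPKM in KO and 19.8–26.1 FPKM in WT libraries, and Qdpr, which renews the cofactor of serotonin synthesis, at 24.4–35.6 and 30.4–45.4 FPKM. Of 17 transcription factor genes of enteroendocrine cells 3 were tested (Foxa1, Foxa2 and Sox4), with 0 called and a median of -0.38. Of 12 nutrient sensor genes Ffar4, a receptor for long-chain fatty acids, was tested, and it was highest in K82S and W89S, at 2.68 and 2.50 FPKM, against 1.04–1.64 FPKM elsewhere. Genes of 16 hormone receptors had no restored row and were not analysed here.

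Of 8 genes of peptidases and other enzymes that inactivate or modify gut hormones, 7 had a restored row and were tested, and 0 were called. All 7 log2 fold changes were above 0, with a median of 0.55 against -0.06 over all rows. Anpep, aminopeptidase N of the brush border, was measured at 3977, 2249 and 2384 FPKM in the KO libraries and at 1504, 1783 and 1867 FPKM in the WT libraries (log2 fold change 0.70, adjusted p = 0.393 by limma). Enpep, aminopeptidase A, was measured at 472, 557 and 409 FPKM in KO and at 285, 350 and 336 FPKM in WT libraries (0.56, adjusted p = 0.393 by limma). Mep1b, a subunit of the brush border protease meprin, was measured at 690, 943 and 527 FPKM in KO and at 529, 521 and 601 FPKM in WT libraries, which overlap. Ace, the angiotensin-converting enzyme, was measured at 732, 170 and 767 FPKM in KO and at 317, 234 and 412 FPKM in WT libraries, with the lowest value in the KO library K82S. Mep1a, the other meprin subunit, divided the libraries as Pyy did, at 243, 398 and 218 FPKM in K79S, K82S and W89S and at 49.4 to 52.9 FPKM in the others, and Mme, neprilysin, overlapped at 32.2–113 and 36.0–87.3 FPKM. Dpp4, the enzyme that inactivates GLP-1 and GIP, was measured at 184, 176 and 178 FPKM in KO and at 143, 152 and 170 FPKM in WT libraries (0.21, adjusted p = 0.574 by limma). In Anpep, Enpep and Dpp4, 3 of the 7, every KO library exceeded every WT library, as in 5.9% of all rows (exact permutation p = 0.1 each), and Dpp4 is named after its values were seen. Without K82S 1 of the 7 passed the threshold, Ace (adjusted p = 0.0473 by limma), in a fit in which 9.28% of all rows passed, and with K82S and W89S both left out it did not (adjusted p = 0.0718 by limma).

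Markers of other cells in the mucosa were read beside these values. The 8 enterocyte markers summed to 22230–40140 FPKM in KO and 31970–37650 FPKM in WT libraries, with the lowest sum in K82S. The 10 restored of 12 goblet, Paneth and tuft cell genes summed to 4829–11670 FPKM in KO and 6178–15250 FPKM in WT libraries, with the highest sums in K82S and W89S, the libraries highest in Sct and Gcg as well. Lyz1, the lysozyme gene of Paneth cells, stood at 816 FPKM in K82S, at 1905 FPKM in W89S and at 102–1115 FPKM in the others. Tff3, the most abundant, followed the sum at 6337 FPKM in K82S, 7748 FPKM in W89S and 2895–3987 FPKM in the others. Muc2 was lowest in W89S, at 7.03 FPKM against 68.3–160 FPKM. Trpm5 was lowest there too, at 0.866 FPKM against 1.65–2.23 FPKM. Fcgbp was highest in K79S, at 894 FPKM, and stood at 400 and 397 FPKM in K82S and W89S. In Muc2 and Fcgbp, 2 of the 10, every KO library exceeded every WT library, as in 5.9% of all rows. Smooth muscle markers (4 of 8 restored) summed to 30.1–51.0 FPKM in KO and 28.0–57.4 FPKM in WT libraries. Mast cell genes (5 of 9 restored, of which Tph1 and Hdc stand in lists above) summed to 3.34–7.0 and 3.83–6.84 FPKM. Markers of enteric neurons and glia and of pancreatic islets, which make some of the same peptides, had 0 of 12 and 0 of 6 restored rows, so their share in the hormone values was not tested.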

How the data were processed

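RNA-seq libraries of 3 KO and 3 WT mice were analysed from a table of the whole series. The authors generated 50 bp single-end reads, removed adapters (trim-galore), aligned the reads with HISAT2, also named in the submitters' processing notes, to mm10, and used StringTie to quantify genes. The deposited values are FPKM, divided by transcript length and mapped reads. Tool versions are not given in the sources used here.

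Identifiers were ranked by the K79S value beside them and rows by W83S, both descending, and an identifier was moved to the row of its own rank plus an offset of at most 3 ranks, which restored 12397 genes. The offsets were taken from an earlier analysis of these data, which had estimated them by matching decimals with transcript numbers. Genes without a restored row were not analysed here. There were 0 columns that could not be mapped to a sample.

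Rows were kept with at least 1 FPKM in 2 or more libraries. limma 3.58.1 (R 4.3.3; lmFit, eBayes with a trend, no covariate) was run on log2(FPKM + 1), with Benjamini-Hochberg adjustment over 13089 rows. Single genes also had an exact permutation test, whose smallest p is 0.1. The fitting step was run on simulated data with known changes, as a check of the code. That run was not a measure of power for the 10 genes. Summaries were computed in Python 3.11.15. Depth was estimated from the step between the lowest values of single-transcript rows, so reads per gene are estimates that depend on the transcript, and counting error covers sampling only. The genes named were the 10 genes, Enpp7, genes past the threshold and listed genes whose library pattern moved with one of the 10. In the lists of granule, amine, peptidase, transcription factor, nutrient sensor, proximal and distal genes the most abundant, up to 4, were named as well. Genes of the gastric, pancreatic, enterocyte, goblet, Paneth and tuft, smooth muscle and mast cell lists were not named by abundance. Dpp4, Ddc, Mme, Slc40a1, Pdx1, Cybrd1, Onecut2, Lyz1, Tff3, Muc2, Trpm5 and Fcgbp were named outside this rule, after their values were seen. The genes and all lists were chosen with earlier results of these data known, and lists were described by counts and medians without a test.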

Additional observations from a re-analysis of the deposited data

How the results depend on the processing

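Over 18 alternative fits, 179 pairs of gene and alternative were computed. The direction and side of the threshold held in 168, the direction turned in 11 and the threshold was passed in 0, with adjusted p-values by limma from 0.122 to 0.995. With each library left out in turn, the log2 fold change ran from -0.25 to 0.0621 for Chgb (0.0122 without K82S), from -0.50 to 0.225 for Cck, from -0.90 to 0.0183 for Gip and from -0.278 to 0.41 for Sct (-0.0667 without W83S). It ran from -0.79 to -0.05 for Chga, from 0.34 to 1.80 for Pyy, from -0.83 to -0.05 for Gcg, from 0.18 to 0.87 for Nts, from 0.11 to 0.20 for Tph1 and from -3.03 to -0.52 for Ghrl. Scaling to the same summed FPKM gave 0.0924 for Chgb and 0.0711 for Cck, quantile normalization 0.0361 for Chgb, and array weights -0.0785 for Sct. With K82S and W89S both left out, chosen after seeing the data, Sct was at -0.0998. The cause of these turns was not tested. The rows next to the restored ones belong to other genes, and there the direction turned for 1 rank below in Chga (0.52), Chgb (0.49), Sct (-0.70) and Nts (-0.71) and for 1 rank above in Cck (0.034), Sct (-0.38), Pyy (-0.12), Nts (-0.525) and Tph1 (-0.00752).

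The number of rows past the threshold in the whole table was 1, and it was 0 with a pseudocount of 0.1 or 0.01, 2 with array weights, 3 with K82S and W89S both left out, and 0 to 1184 when each library was left out, with the highest number without K82S. A limit of 2 FPKM removed Tph1. Medians of the lists stayed within the spread in 45 of 48 cases. Without K82S the amine median was 0.04 and the mast cell median -0.26, and without K82S and W89S the amine median was 0.08. No paired analysis was possible because the labels give KO and WT libraries no shared numbers. The study's methods speak of matched pairs, and which mice form a pair is not given in the sources used here. Depth limits Tph1 most, with an estimated 7 to 99 reads per library by transcript, and then Ghrl, Pyy and Gcg in their lowest libraries, with an estimated 14 to 55, 38 to 56 and 41 to 69 reads.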
